A study of Mus musculus with 24 samples.

Results

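Neural retinas of wildtype mice given doxycycline (dox) were compared with those of untreated wildtype mice. Members were chosen by their labels alone (genotype wildtype, tissue retina), which gave 6 of the 24 libraries of the series, 3 with dox and 3 untreated. The dox mice drank water holding 2 mg/mL dox and 10% sucrose for 72 hours, beginning at P28. The sources used here do not say whether the untreated mice drank sucrose, so dox and sucrose cannot be told apart. All 6 mice were littermates of PRDM13-OE animals, in which dox switches on a human PRDM13 cassette, and carried no cassette themselves. They therefore compare the drinking water without the cassette. Both groups were kept under the same 12 hour light and dark cycle.

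Dox is a tetracycline. It blocks translation on bacterial ribosomes, can also slow translation inside mitochondria, and serves as the switch of Tet-inducible transgenes. The neural retina holds rods, cones, interneurons, ganglion cells and Müller glia. At its rim it meets the ciliary body, whose epithelium makes the aqueous humour and the zonule fibres that hold the lens, so small amounts of lens or ciliary tissue can come along in a dissection.

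Between 17046540 and 19134387 reads per library were counted on genes with dox (median 17844428), and between 18243611 and 21513207 without (median 20934588). The Xist level marked dox retinas 1 and 2 and untreated retina 2 as female (99.6, 111 and 266 CPM, counts scaled to library size), and it was 0 in the other 3. Lens transcripts set dox retinas 1 and 2 apart. The summed level of 16 lens crystallins was 12847 CPM in dox retina 1 and 5675 CPM in dox retina 2, compared with 166 CPM in dox retina 3 and 1012, 247 and 361 CPM in the untreated retinas. Both libraries with high lens levels were thus from female mice with dox. For results that rest on them, the value without them is given as well. That fit leaves dox retina 3 alone against 3 untreated retinas and assumes that it varies as they do.

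Few genes passed the test for a difference between the groups, with 3 mice in each. The study itself reports that wildtype retinas with dox clustered separately, and that dox alone altered various retinal transcripts. Of 20631 genes tested with edgeR, 1 (0.00485%) rose with dox, by an adjusted p under 0.05 together with a change of more than 1 on the log2 scale, and 0 fell. Slc6a13, which encodes the GABA carrier GAT2, was the gene that rose. At an unadjusted p under 0.05, 967 genes (4.69%) were higher and 955 (4.63%) lower with dox, and the lowest adjusted p of any lower gene was 0.0591. DESeq2 called 22 genes higher (0.107%) and 4 lower (0.0194%), and it put 748 (3.63%) and 592 (2.87%) at an unadjusted p under 0.05. The median log2-fold change of all genes was -0.01.

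The precision depended on the level of a gene. The 95% interval of the log2-fold change lay within a 2-fold change in either direction for 13973 of the genes tested (67.7%). For genes with a mean level between 10 and 100 CPM the median standard error was 0.0823, and 7891 of 7983 (98.8%) had such an interval. Under 1 CPM the median standard error was 0.691, and only 232 of 5805 genes (4%) did. Intervals were thus narrow for nearly all genes between 10 and 100 CPM, and reached past a 2-fold change for most genes under 1 CPM. The labels number the mice but do not name litters, so p-values measure the spread between 3 mice a group.

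**Figure D1:**
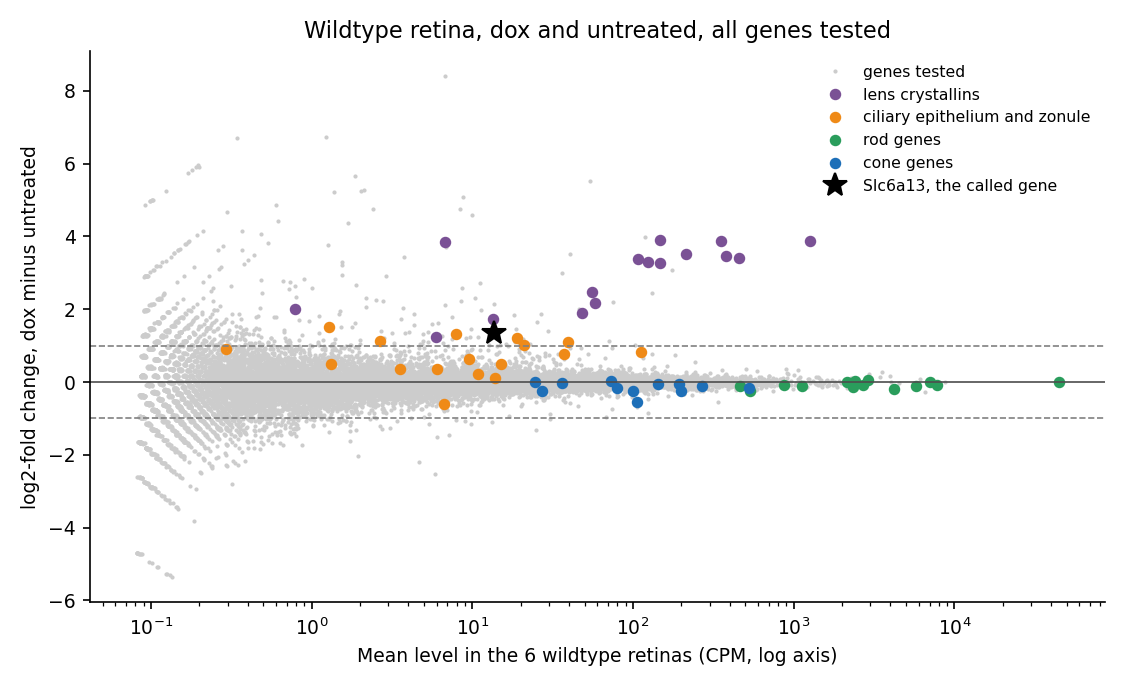
Each point is 1 of the 20631 genes tested, with its mean level in the 6 wildtype retinas (CPM, log axis) against its log2-fold change with dox. Rod and cone genes lie close to 0, lens crystallins between 1.25 and 3.91, and the star marks Slc6a13, dashed lines marking a log2-fold change of 1 in either direction.

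Slc6a13 (ENSMUSG00000030108, chromosome 6, 121277186 to 121314692 in GRCm39) belongs to the family of sodium-coupled carriers that take neurotransmitters and related amino acids out of the extracellular space. Its level was 19.5, 18.7 and 20.3 CPM in the retinas with dox and 9.21, 7.82 and 5.96 CPM in the untreated retinas. All 3 dox retinas were above every untreated retina, and they lay close together. The means were 19.5 ± 0.82 and 7.66 ± 1.63 CPM (SD, n = 3 each), a 2.55-fold difference. The log2-fold change was 1.35 (SE 0.14, 95% interval 1.03 to 1.67, edgeR adjusted p = 0.0257). It was 1.35 with the crystallin level as a covariate (adjusted p = 0.0560), 1.22 with that covariate over all 12 retinas (0.770), and 1.42 without dox retinas 1 and 2 (0.0865, with dox retina 3 as the only dox library), so it was not called in these fits. Over all 18 alternative settings, these included, the log2-fold change stayed between 1.20 and 1.51, and the gene was called in 10 of them.

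The bases around a RefSeq start of Slc6a13 are shown because it is the gene that passed the test. The RefSeq table holds 3 starts for it, and the first by position was taken. The window holds 250 bases before and 50 bases from the start, on the plus strand of chr6:121300038-121300337 in GRCm38.p6, the build of the RefSeq table. The same 300 bases were found at 121276997 to 121277296 in GRCm39, the build of the deposited table. Capitals mark GGATTA, which reads TAATCC on the other strand, the core bound by OTX and CRX homeodomain proteins.
Slc6a13 promoter: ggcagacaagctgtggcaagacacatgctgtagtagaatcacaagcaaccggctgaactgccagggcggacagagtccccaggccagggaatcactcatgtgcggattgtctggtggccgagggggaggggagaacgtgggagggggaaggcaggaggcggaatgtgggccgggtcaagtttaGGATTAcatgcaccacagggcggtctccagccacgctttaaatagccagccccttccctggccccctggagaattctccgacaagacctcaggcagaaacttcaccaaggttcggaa
These letters, searched on both strands, occurred once here, 61 bases before the start used, and in 2320 of 32851 RefSeq promoters of the same length (7.06%). That start lies 61 bases after the gene start of the deposited table, so the distance depends on the start taken. The match describes the sequence and says nothing about binding.

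The other carriers of GABA, glycine and taurine were listed after the value of Slc6a13 was seen, and none of those given here was called. Slc6a11 (GAT3), a GABA carrier of neurons and glia, had a log2-fold change of -0.01. The glycine carriers Slc6a9 and Slc6a5 were at 0.05 and -0.04, the taurine carrier Slc6a6 at -0.12, and the betaine carrier Slc6a12 at 0.41 (edgeR adjusted p = 0.567). Per length, in the deposited FPKM, Slc6a13 was at 5.97 to 6.58 with dox and 1.89 to 2.92 without, whereas Slc6a11 was at 65.7 to 77.7 over all 6 retinas. Slc6a13 was thus far below Slc6a11 per length in both groups.

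Slc6a13 had other values elsewhere. In PRDM13-OE retinas it was at 4.73, 5.77 and 5.48 CPM with dox and at 24.9, 2.22 and 9.40 CPM without, which is -1.19 on the log2 scale (edgeR adjusted p = 0.32). Untreated PRDM13-OE retina 1 alone exceeded the wildtype dox retinas, and it also had the highest summed RPE and pigment level of the 12 retinas (1107 CPM). The genotype by dox interaction over the 12 retinas, wildtype minus PRDM13-OE, was 2.53 (SE 0.65, edgeR adjusted p = 0.0439). It rested in part on that retina, being 1.47 without it (edgeR adjusted p = 0.108). The interaction did not pass with DESeq2 (adjusted p = 0.0755). With 1 library left out, it passed only without PRDM13-OE untreated retina 2. In the eye cups of the wildtype mice (RPE, choroid and sclera), scaled separately, it was at 131, 192 and 253 CPM with dox and at 390, 466 and 570 CPM without. All 3 dox eye cups were below every untreated eye cup, by -1.31 on the log2 scale (SE 0.27; adjusted p = 0.0673 by edgeR and 0.00044 by DESeq2).

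**Figure D2:**
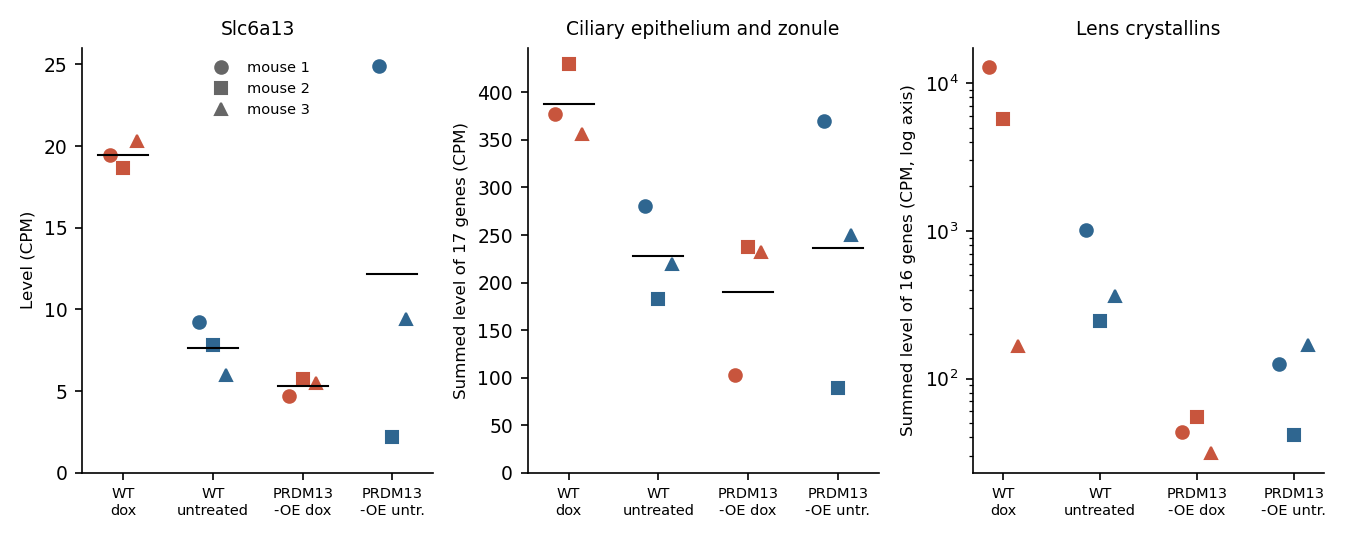
Levels in each of the 12 neural retinas by genotype and treatment (red with dox, blue untreated, symbols by mouse number), for Slc6a13 (CPM), the sum of 17 ciliary epithelium and zonule genes (CPM) and the sum of 16 lens crystallins (CPM, log axis), with bars at the mean in the first pair of panels. The wildtype dox retinas stand at 18.7 to 20.3 CPM for Slc6a13 and at 357 to 430 CPM for the ciliary genes, while their crystallin sums run from 166 to 12847 CPM.

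Genes of the ciliary epithelium and the zonule had higher levels in the same libraries. The list of 17 genes was drawn up with these values known and has no test of its own. Its summed level was 377, 430 and 357 CPM with dox and 280, 183 and 220 CPM without, so all 3 dox retinas were above the untreated ones. None of the 17 was called by edgeR, 10 were higher (4.69% of all genes were) and 1, Adamts10, was lower at an unadjusted p under 0.05, and 9 had no overlap between the groups, compared with 6.44% of all genes tested. Adamts10 was at -0.60, and at -0.27 without dox retinas 1 and 2. DESeq2 called 4 of them higher, Best2, Mfap4, Gja1 and Otx1 (0.107% of all genes were). The median log2-fold change was 0.76, and it was 0.69 with the crystallin covariate and 0.74 without dox retinas 1 and 2. In bulk RNA, fewer cells of a type and less RNA per cell cannot be told apart.

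Best2, a chloride channel of the ciliary epithelium, was at 14.2, 10.1 and 9.45 CPM with dox and at 5.07, 4.15 and 4.39 CPM without. Mfap4, a microfibril glycoprotein, was at 27.8, 28 and 23.6 CPM compared with 13.3, 8.14 and 12.6 CPM. Gja1, the gap junction protein connexin 43, was at 43.5, 70.9 and 46.1 CPM compared with 26.3, 23.3 and 25.7 CPM. Each of these genes was higher in every dox retina than in any untreated retina, by log2-fold changes of 1.31, 1.22 and 1.10 (edgeR adjusted p = 0.0591 each). The zonule genes Fbn1 (fibrillin 1, the main zonule protein) and Ltbp2 were at log2-fold changes of 0.76 and 1.01 (edgeR adjusted p = 0.303 and 0.159). Col18a1, a basement membrane collagen, was at 0.81, and the transcription factor genes Otx1, Zic1 and Zic2 were at 1.13, 0.51 and 0.63. Without dox retinas 1 and 2 Zic1 was at 0.32.

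The sum of the ciliary list varied as much between mice elsewhere. In PRDM13-OE retinas it was 102, 237 and 232 CPM with dox and 370, 88.9 and 251 CPM without, with overlap of the groups. In untreated PRDM13-OE retina 1 it was as high as in the wildtype dox retinas, and there Slc6a13 was at its highest too. The part of ciliary tissue in the rise of Slc6a13 was not tested.

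More genes named by their low p-values, chosen after those were seen, were higher with dox but were not called by edgeR. DESeq2 called Sod3, Fbln1, Folr1 and Bmp2 among them. Sod3, extracellular superoxide dismutase, was at 21.4, 24.8 and 18.9 CPM with dox and at 13.1, 8.80 and 9.63 CPM without (log2-fold change 1.05, edgeR adjusted p = 0.0591). Fbln1, the matrix protein fibulin 1, was at 163, 133 and 117 CPM compared with 83.4, 51.6 and 68.1 CPM (1.03, adjusted p = 0.0618). Col2a1, a collagen of the vitreous, was at 70.0, 71.1 and 72.0 CPM compared with 52.0, 50.8 and 55.7 CPM (0.43, adjusted p = 0.0591). None of these overlapped between the groups, and Col2a1 showed the narrowest spread. They were chosen by low p-value, however. Of the 967 higher genes at an unadjusted p under 0.05, 653 had no overlap, and 6.44% of all genes lay above without overlap. Folr1, a folate receptor, Bmp2, a growth factor of the TGF-beta family, and the tight junction gene Cldn2 were at log2-fold changes of 1.09, 1.11 and 0.98 (adjusted p = 0.107, 0.109 and 0.0716). Folr1 was at 0.65 without dox retinas 1 and 2.

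Fibroblast markers were higher as well, but none was called by edgeR. All 7 tested were higher at an unadjusted p under 0.05 (4.69% of all genes were), and 2 with the crystallin covariate, with a median log2-fold change of 0.92 and summed levels of 223, 201 and 160 CPM with dox and 125, 81.4 and 107 CPM without. Fbln1 made up most of the sum. Without dox retinas 1 and 2 the median was 0.19. Of 13 RPE and pigment genes, 4 were higher at an unadjusted p under 0.05 (median 0.52, and 0.30 without dox retinas 1 and 2), and Tyr, which starts melanin synthesis, was at 5.70, 7.89 and 5.55 CPM with dox and at 3.65, 4.86 and 2.86 CPM without. Rpe65, the isomerase that defines the RPE, was at 8.35, 12.8 and 18.8 CPM compared with 17.0, 16.7 and 4.53 CPM, with overlap of the groups.

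Lens genes had high fold changes, which 2 libraries carried. Cryaa, the alpha A crystallin of the lens, was at 4778, 2294 and 36.5 CPM with dox and at 322, 59.8 and 107 CPM without. Dox retinas 1 and 2 were far above every other retina, and dox retina 3 was below all untreated ones. The log2-fold change of Cryaa was 3.86 (SE 1.14, edgeR adjusted p = 0.322). None of the 16 crystallins was called, although 14 were higher at an unadjusted p under 0.05 (4.69% of all genes were), with a median log2-fold change of 3.33. Their median was -1.78 without dox retinas 1 and 2, the opposite direction. It was 3.90 without dox retina 3, a fit in which 14 of the 16 were called higher (0.603% of all genes were). Crystallins came to at most 1.28% of a library by the scaled CPM.

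Lens fibre and lens epithelium genes mostly followed the same 2 mice. Of 11 tested lens genes other than crystallins, 6 were higher and 1 lower at an unadjusted p under 0.05 (4.69% and 4.63% of all genes were). None was called, and their median was 2.14, and -1.86 without dox retinas 1 and 2. Bfsp1, a beaded filament protein of lens fibres, was at 44.8 and 19.4 CPM in dox retinas 1 and 2, 2.07 CPM in dox retina 3, and 6.43, 4.04 and 4.58 CPM in the untreated retinas. Foxe3, a transcription factor gene of the lens epithelium, was at 11.3 and 29.4 CPM in dox retinas 1 and 2 and at no more than 0.0974 CPM in the other 4. Among 13 lens epithelium and capsule genes, listed after seeing the values, all were higher at an unadjusted p under 0.05 (4.69% of all genes were). Their median was 3.06, which was 0.21 without dox retinas 1 and 2. Leaving out dox retina 3 raised the count of called genes over all genes from 1 to 122 higher (0.603%) and from 0 to 4 lower (0.0198%). In dox retina 3, 42 of these 122 genes were above all untreated retinas, 46 within their range and 34 below. A Wnt ligand gene and an FGF receptor gene were among those carried by dox retinas 1 and 2: Wnt7b was at 24.3, 23.9 and 0.118 CPM with dox and Fgfr3 at 11.1, 8.85 and 0.827 CPM. The untreated retinas had at most 1.22 CPM of Wnt7b and 0.929 CPM of Fgfr3.

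Surface epithelium genes, keratins and a dehydrogenase of the cornea and its surroundings, were high in 1 of these libraries. Their summed level was 1.90, 21.0 and 0.413 CPM with dox and 0.633, 0.273 and 0.954 CPM without, so dox retina 2 carried the sum. Of 6 tested, 5 were higher at an unadjusted p under 0.05 (4.69% of all genes were) and none was called. Their median log2-fold change of 3.97 was above that of the crystallins, and it was 2.28 with the 3 genes undetected in a group set at their bound. Without dox retinas 1 and 2 it was -0.55. The lists for blood and skeletal muscle had 0 genes at that threshold.

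**Figure D3:**
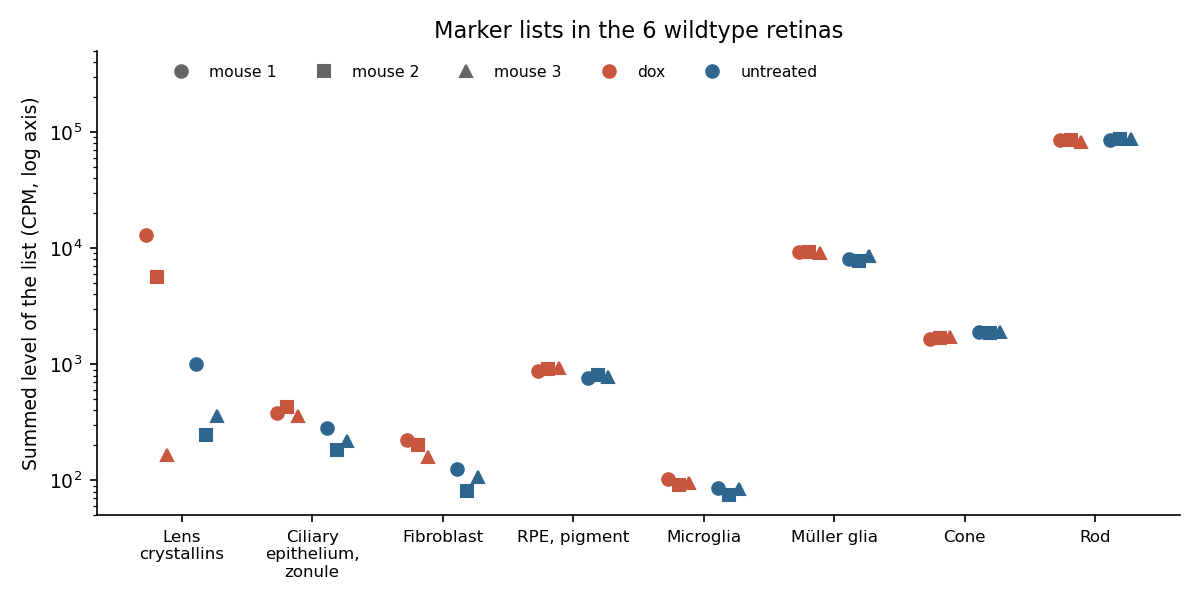
Summed level of 8 marker lists in each of the 6 wildtype retinas (CPM, log axis), red with dox and blue untreated, with a symbol for each mouse number. The lens crystallins span 166 to 12847 CPM among the dox retinas. The ciliary epithelium and zonule genes, listed with these values known, separate the groups at 357 to 430 against 183 to 280 CPM. Rod sums overlap, and cone sums lie at 1650 to 1723 CPM with dox against 1858 to 1891 CPM without.

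Rod genes, by contrast, differed by little. All 14 had an interval within a 1.5-fold change, as did 55.4% of all genes and 98.5% of those at 100 CPM and over. None was called, and the median log2-fold change was -0.09 (-0.06 without dox retinas 1 and 2). Small differences in 1 direction were nevertheless frequent: 6 of the 14 were lower at an unadjusted p under 0.05 (4.63% of all genes were), 3 with the crystallin covariate, and 6 lay below the untreated retinas without overlap (7.92% of all genes did). Pde6b, a subunit of the phosphodiesterase that closes the light-sensitive channels, was at 2225, 2242 and 2170 CPM with dox and at 2435, 2412 and 2531 CPM without (-0.15, edgeR adjusted p = 0.247). Sag, the arrestin of rods, was at -0.20 (adjusted p = 0.249), Gnat1, rod transducin, at -0.09, and Nrl, the gene of the rod-determining transcription factor, at 0.03.

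Cone genes lay slightly lower. Their summed level was 1650, 1681 and 1723 CPM with dox and 1890, 1858 and 1891 CPM without, so the groups did not overlap. None of the 12 was called, 4 were lower at an unadjusted p under 0.05 (4.63% of all genes were), and 3 lay below without overlap (7.92% of all genes did). With the crystallin covariate 2 were lower. The median log2-fold change was -0.13, and -0.07 without dox retinas 1 and 2. Arr3, cone arrestin, was at 79.7, 92.1 and 86.3 CPM with dox and at 122, 150 and 105 CPM without. All dox retinas were below all untreated ones, and the log2-fold change was -0.54 (SE 0.11, 95% interval -0.79 to -0.29, edgeR adjusted p = 0.190). It was -0.50 with the crystallin covariate and -0.53 without dox retinas 1 and 2. Gnat2, cone transducin, was at -0.25 (adjusted p = 0.240), and the cone pigments Opn1sw and Opn1mw at -0.16 and -0.05, with overlap. The largest cone difference was thus in a gene of shut-off, at less than the 2-fold required of a call.

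Inner retinal neurons had medians near 0. The medians of the bipolar (12 genes), horizontal (6), amacrine (13) and ganglion cell (12) lists were 0.05, 0.03, 0.02 and 0.04 (0.10, 0.16, 0.03 and 0.09 without dox retinas 1 and 2). All 43 intervals lay within a 2-fold change, as did those of 67.7% of all genes and 98.8% of genes at 10 to 100 CPM. None of their genes was called. At an unadjusted p under 0.05, 2 bipolar genes were higher and 1 lower, 1 amacrine gene was lower, and 0 horizontal or ganglion cell genes differed. Nyx, the nyctalopin gene of ON bipolar cells, was at 48.1, 48.2 and 46.6 CPM with dox and at 36.8, 41.6 and 36.7 CPM without (0.31, edgeR adjusted p = 0.207). Th, which makes dopamine in a class of amacrine cells, was at -0.47 (adjusted p = 0.424). Endogenous Prdm13, an amacrine cell transcription factor gene, was at 50.9, 49.2 and 46.7 CPM with dox and at 44.9, 52.6 and 48.7 CPM without, with overlap of the groups (log2-fold change 0.01).

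Müller glia genes were slightly higher with dox. Their sum was 9289, 9289 and 9065 CPM with dox and 8047, 7765 and 8572 CPM without, with no overlap. Of 12 genes, 0 were called by edgeR or DESeq2 and 6 were higher at an unadjusted p under 0.05 (4.69% of all genes were), with a median log2-fold change of 0.13. The median was 0.17 without dox retinas 1 and 2 and 0.16 with the crystallin covariate, under which 5 were higher. Clu, the secreted chaperone clusterin, was at 1065, 1056 and 904 CPM with dox and at 754, 773 and 850 CPM without (0.35, edgeR adjusted p = 0.155), and Apoe, the lipid carrier, was at 0.32. Without dox retinas 1 and 2 these were 0.20 and 0.15. Glul, glutamine synthetase, was at 0.14. The intermediate filament gene Vim was at 0.54, which was 0.07 without dox retinas 1 and 2. Gfap, the filament protein that marks reactive glia, was at 42.1, 40.3 and 47.4 CPM with dox and at 33.6, 35.9 and 34.2 CPM without (0.33, adjusted p = 0.233), and dox retina 3, with the least lens RNA, was the highest. The list of 14 reactive glia and stress genes had a median of 0.00, with 7 positive and 1 higher at an unadjusted p under 0.05.

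For microglia genes the median was 0.20, and 0.23 without dox retinas 1 and 2. Of 12, 11 had a positive log2-fold change, 4 were higher at an unadjusted p under 0.05 (4.69% of all genes were) and 6 had no overlap (6.44% of all genes, dox higher). With the crystallin covariate 1 was higher. Csf1r, the growth factor receptor that microglia depend on, was at 19.5, 17.7 and 19.7 CPM with dox and at 15.9, 14.0 and 15.4 CPM without (0.33, edgeR adjusted p = 0.303). Cx3cr1 and P2ry12, receptors of resting microglia, were at 0.04 and 0.10, with overlap. Endothelial genes had a median of 0.13 with 0 of 9 at an unadjusted p under 0.05.

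**Figure D4:**
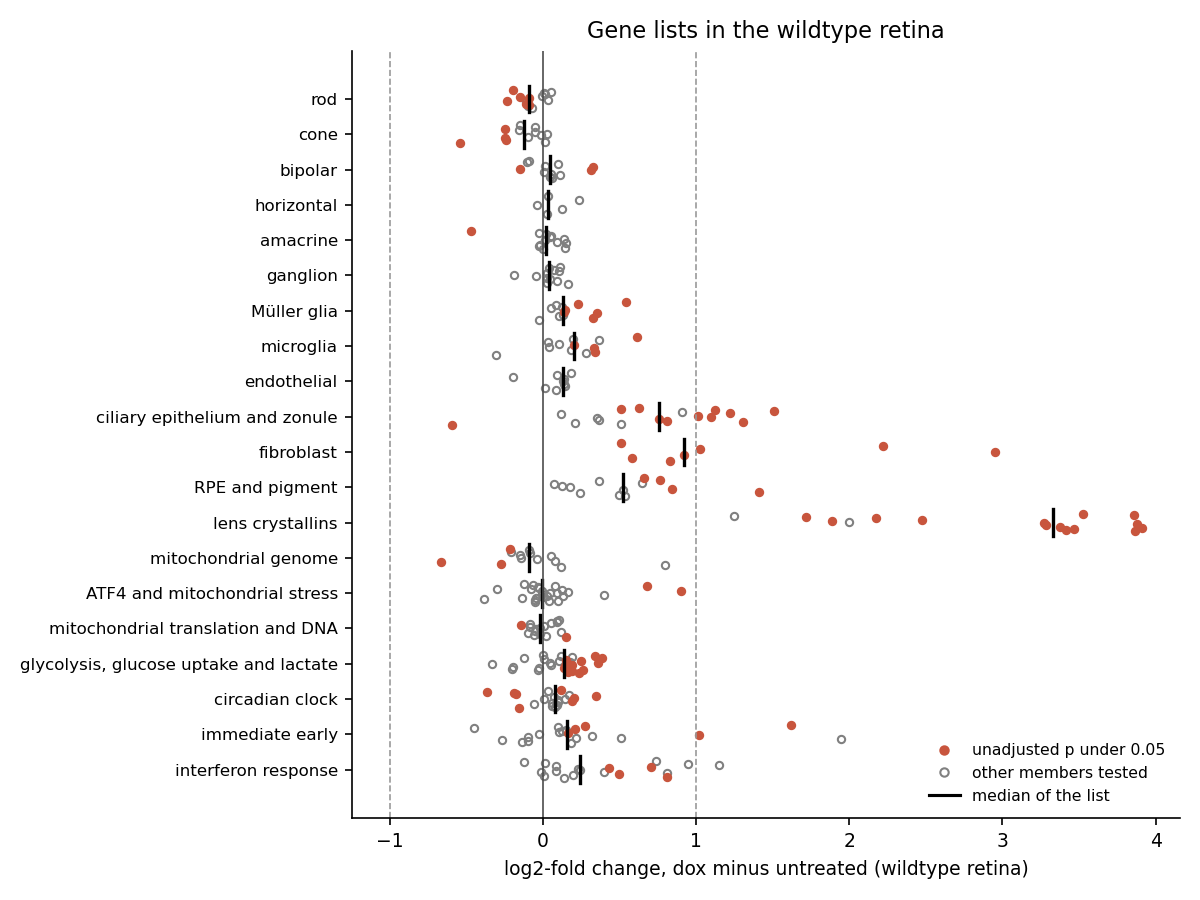
Log2-fold change with dox of each tested member (points) and the median (bar) of 20 gene lists in the wildtype retina, filled where the unadjusted p is under 0.05. Neuron, mitochondrial and clock lists centre near 0, and of the 20 only the lens crystallins, the fibroblast, RPE and the ciliary and zonule lists have medians above 0.5.

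Because dox can act on mitochondria, genes of mitochondria and of their stress response were examined. Over the 13 protein genes of the mitochondrial genome the median was -0.09 (-0.19 without dox retinas 1 and 2), with 3 lower at an unadjusted p under 0.05. mt-Co1, a subunit of complex IV, was at 6304, 5499 and 5891 CPM with dox and at 6629, 7507 and 7346 CPM without. All dox retinas were below all untreated ones, by -0.28 (SE 0.05, 95% interval -0.40 to -0.16, edgeR adjusted p = 0.159), and the value was -0.27 with the crystallin covariate. mt-Cytb of complex III was at -0.04 and mt-Nd6 of complex I at -0.22, with overlap. Some mitochondrial genes share reads with nuclear copies, which the counting could split. The summed level of the 13 overlapped, at 20708, 17186 and 18150 CPM with dox and 19228, 21532 and 21160 CPM without.

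Nuclear genes of mitochondria lay near 0. The medians were 0.01 for 81 mitochondrial ribosomal proteins, 0.04 for 82 oxidative phosphorylation genes and -0.02 for 17 genes of mitochondrial translation and DNA upkeep. All 81 and all 17 of those intervals were within a 2-fold change, as were those of 67.7% of all genes and 98.8% of genes at 10 to 100 CPM. Of 26 tested genes of the ATF4 and mitochondrial stress response, 2 were higher at an unadjusted p under 0.05, Phgdh of serine synthesis and the cystine carrier Slc7a11. Atf4, which encodes the regulator of that response, was at -0.05, and its targets Ddit3 and Asns were at 0.13 and 0.10. Phgdh was at 0.90, which was -0.07 without dox retinas 1 and 2.

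Glycolysis genes were the metabolic list with the largest share of higher members. Of 26, 12 were higher at an unadjusted p under 0.05 (4.69% of all genes were), 9 had no overlap (6.44% of all genes) and none was called. The median log2-fold change was 0.14, and 0.06 without dox retinas 1 and 2. With the crystallin covariate 8 were higher and 2 lower. Slc2a1, the glucose carrier GLUT1, was at 393, 416 and 384 CPM with dox and at 313, 297 and 334 CPM without. Its groups did not overlap (0.34, SE 0.06, 95% interval 0.21 to 0.47, edgeR adjusted p = 0.115), and its value was 0.32 with the covariate and 0.30 without dox retinas 1 and 2. Aldoa (aldolase), Eno1 (enolase) and Pkm (pyruvate kinase) were at 0.23, 0.26 and 0.15, and these became 0.12, 0.16 and 0.06 without dox retinas 1 and 2. Hk1, the first enzyme of the pathway, was at -0.03.

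Clock genes went both ways by little. Of 20, 4 were higher and 4 lower at an unadjusted p under 0.05 (4.69% and 4.63% of all genes were), which became 2 and 1 with the crystallin covariate. An interval within a 1.5-fold change was found for 17 of them, for 55.4% of all genes and for 95.9% of genes at 10 to 100 CPM. Nr1d1, a clock repressor gene, was at 0.20, Per1 at 0.35, Per3 at -0.18 and Rorb at -0.37. Without dox retinas 1 and 2 Per1 was at -0.04. Of 20 immediate early genes, 5 were higher at that threshold (4.69% of all genes were), and 1 higher and 3 lower with the covariate, with a median of 0.16 that was -0.22 without dox retinas 1 and 2. Fosl2, which DESeq2 called, had the lowest p of them, at 16.6, 20.9 and 13.3 CPM with dox and 6.19, 10.0 and 9.01 CPM without (1.02, edgeR adjusted p = 0.153, and 0.67 without dox retinas 1 and 2), whereas Fos and Egr1 were at -0.10 and -0.27. Of 19 interferon response genes, 4 were higher at the same threshold, and 0 with the crystallin covariate. Their median was 0.24, and -0.10 without dox retinas 1 and 2, and Isg15 was at 0.70, and 0.21 without them. For the proteases that tetracyclines inhibit, of 14 matrix metalloproteinase and inhibitor genes, 2 were higher at that threshold, the inhibitors Timp2 (0.18, and 0.05 without dox retinas 1 and 2) and Timp3 (0.29). Of 25 metallothionein and zinc transporter genes 1 was, Slc39a12 (0.66), and of 12 glucocorticoid response genes 0 were.

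Signalling, matrix and other families were counted at the same unadjusted p, at which 4.69% of all genes were higher and 4.63% lower. Of 24 Wnt signalling genes, 8 were higher, and 2 with the crystallin covariate. Of 17 FGF signalling genes 4 were higher, Fgfr3 and Fgfr2 with the largest values (3.43 and 1.28, and 0.37 and 0.30 without dox retinas 1 and 2), and 1, Etv4, was lower. Of 43 collagens 17 were higher and 5 lower, the lens capsule chain Col4a1 being at 261, 644 and 36.4 CPM with dox and at 44.4, 29.7 and 38.6 CPM without. Of 83 cytosolic ribosomal protein genes 7 were higher, with a median of 0.09, which was -0.00 without dox retinas 1 and 2. Of 18 cholesterol and fatty acid genes, 1 was lower, and of 12 heat shock genes 2 were higher. Of 22 keratins 7 were higher, with Krt19, which DESeq2 called, at 2.76, and at 0.67 without dox retinas 1 and 2. The keratin median was 0.43, and -0.05 without them.

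On the lower side, genes were named from those of low p-value after these were seen. The pseudogenes Gm12191 and Rpl30-ps10 and the long non-coding RNA gene Gm16055 had the lowest, at log2-fold changes of -1.51, -2.20 and -0.81 (edgeR adjusted p = 0.0591, 0.0716 and 0.0591), and DESeq2 called both pseudogenes and Xlr3a. Pseudogenes may share reads with their parent genes. The rest given here are protein-coding. Xlr3a, an X-linked gene of a lymphocyte-regulated family, was at 1.04, 0.697 and 0.531 CPM with dox and at 4.14, 2.40 and 2.77 CPM without (log2-fold change -2.03, edgeR adjusted p = 0.0767), and copies of this family may share reads. Pla2r1, a phospholipase A2 receptor, was at 110, 114 and 103 CPM with dox and at 136, 142 and 139 CPM without (-0.34, adjusted p = 0.127). Ppef2, a phosphatase gene of photoreceptors, was at 119, 113 and 123 CPM with dox and at 156, 148 and 142 CPM without (-0.33, adjusted p = 0.153). Fam161a, a gene of the connecting cilium, was at -0.31 (adjusted p = 0.159), and Cacna1f, the calcium channel of the photoreceptor synapse, at -0.34 (adjusted p = 0.207). Lbhd1, the zinc finger gene Zc3h6, the histone gene H3f3b and Wdr89, with p-values in the same range, were at -0.34, -0.40, -0.26 and -0.35. None of the genes in this paragraph overlapped between the groups, but they were chosen by low p-value. Of the 955 lower genes at an unadjusted p under 0.05, 772 had no overlap, and 7.92% of all genes lay below without overlap.

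A list of 23 genes was taken as those the study followed with PRDM13, chosen partly from libraries of this series. Its members Aipl1, Samd11 and Fscn2 are not named in the text of the study. Of the 23, 1 was called in wildtype, Slc6a13. The interval lay within a 2-fold change for 15 (65.2%, and 67.7% of all genes) and within a 1.5-fold change for 12 (52.2%, and 55.4% of all genes). At an unadjusted p under 0.05, 6 were higher and 3 lower (39.1% in all, and 9.32% of all genes), and 5 had all dox retinas above all untreated ones (6.44% of all genes did). Tulp1, a photoreceptor transport gene, was at -0.05 (95% interval -0.15 to 0.05), and Aipl1, the chaperone of rod phosphodiesterase, at -0.04 (-0.14 to 0.06). Nr2e3, a rod transcription factor gene, was at 449, 455 and 569 CPM with dox and at 630, 537 and 568 CPM without (-0.23, edgeR adjusted p = 0.456), and -0.01 without dox retinas 1 and 2. Crybb3, Htra3 and Igfbp7 were higher in wildtype by 3.27, 2.31 and 2.20, and became -1.71, -0.41 and 0.25 without dox retinas 1 and 2. Abi3bp was at 0.74, and at 0.40 without them.

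In PRDM13-OE retinas, which share no library with the wildtype ones, dox gave 86 genes called higher (0.417%) and 128 lower (0.621%). Of those, 207 were tested in wildtype, where 137 had an interval within a 2-fold change (66.2%, and 67.7% of all genes). In wildtype 35 had an unadjusted p under 0.05 (16.9%, and 9.32% of all genes), and 106 (51.2%) had the same sign as in PRDM13-OE, compared with 46.8% of all genes tested in both. Of the 1855 genes tested in both with an unadjusted p under 0.05 in wildtype, 42.6% had the same sign in PRDM13-OE. Gnb3, a transducin subunit of cones, was at 256, 259 and 269 CPM with dox and at 243, 316 and 281 CPM without in wildtype. In PRDM13-OE it was at 73.0, 76.0 and 73.8 CPM with dox and at 308, 229 and 296 CPM without. The interaction of genotype and dox, wildtype minus PRDM13-OE, was called for 116 genes (0.515%) in the higher and 80 (0.355%) in the lower direction.

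**Figure D5:**
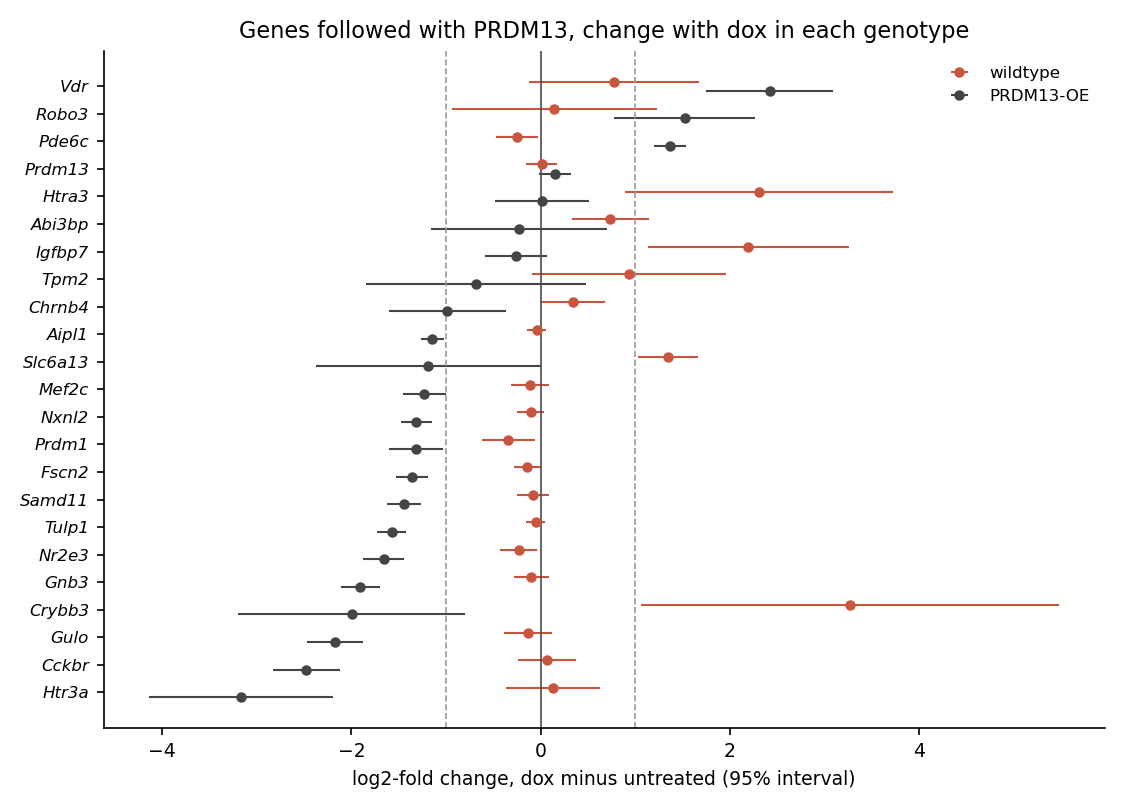
Log2-fold change with dox and its 95% interval for the 23 genes listed as followed with PRDM13, in wildtype (red) and PRDM13-OE retinas (grey), dashed lines marking a 2-fold change. Most wildtype intervals enclose or lie near 0, and Slc6a13, Htra3, Igfbp7 and Crybb3 lie to the right, Slc6a13 at 1.35 in wildtype and -1.19 in PRDM13-OE.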

How the data were processed

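RNA from neural retinas and eye cups was sequenced as polyA libraries by Novogene, and the submitters' processing notes name CASAVA, HISAT2 and GRCm39. The counting tool, the strand setting and the annotation release are not given in the sources used here. Overlapping and antisense genes are therefore uncertain. The authors deposited raw read counts per gene for 56748 genes, and FPKM computed from the read count and length of each gene. Columns of the authors' own comparisons (group means, fold changes and p-values) were not used. Group and mouse number were taken from the labels.

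The counts were fitted with edgeR 4.0.16 in R 4.3.3 (quasi-likelihood test after TMM scaling, without robust fitting). Genes needed 10 or more counts in total across the 6 libraries. P-values were adjusted after Benjamini and Hochberg, taking all tested genes together. Calls required an adjusted p under 0.05 together with a change of more than 1 on the log2 scale. CPM of retinas were scaled by TMM over all 12 retinas, those of eye cups over the 6 wildtype eye cups. DESeq2 1.42.0 was the alternative test. Other alternatives are given in the closing section. The covariate was the log2 summed crystallin CPM. Standard errors and 95% intervals come from the edgeR fit. The scripts were tested on simulated data. No 2 of the 6 libraries were copies.

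Gene lists and members were chosen with earlier results of these data known. Named genes are the called genes (up to 12 in each direction, without overlap and with 10 counts or more in each of the higher libraries), up to 6 further members of each list, and the genes listed as followed with PRDM13. Others are said to be chosen after their values were seen. Lists of ciliary epithelium and zonule, of GABA, glycine and taurine carriers and of lens epithelium and capsule genes were drawn up with the values known. Lists were described by counts and medians, with no test. Same-numbered mice did not deviate together (correlations 0.0223, 0.0269 and 0.0808), so the numbers were not taken as pairs. Figures were drawn with matplotlib 3.10.9.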

Additional observations from a re-analysis of the deposited data

Results flagged for a closer look

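The genotype by dox interaction was tested with edgeR over the 12 retinas, and 16 of the 23 genes listed as followed with PRDM13 (69.6%) had an effect of dox in wildtype that differed from that in PRDM13-OE at an adjusted p under 0.05, compared with 682 of all 22538 genes tested (3.03%). The listed genes were chosen partly from the same libraries, so that share is not independent evidence. Values are wildtype minus PRDM13-OE on the log2 scale. Slc6a13 was at 2.53 (SE 0.65, adjusted p = 0.0439), with 1.35 in wildtype and -1.19 in PRDM13-OE. Untreated PRDM13-OE retina 1, at 24.9 CPM, carried the latter, the other untreated ones being at 2.22 and 9.40 CPM and those with dox at 4.73, 5.77 and 5.48 CPM. Without that retina the interaction was 1.47 (adjusted p = 0.108). Slc6a13 was 1 of 2 genes of the 16 whose wildtype change was the larger. The other was Igfbp7, which binds insulin-like growth factors, at 2.45 (SE 0.59, adjusted p = 0.0274). Its wildtype levels were 119, 217 and 31.8 CPM with dox and 30.3, 20.9 and 29.3 CPM without, so dox retinas 1 and 2, with the most lens RNA, carried the value.

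For the other 14 the change in PRDM13-OE was the larger. Photoreceptor genes among them were Tulp1 (1.52, adjusted p = 2.6e-08), Aipl1 (1.10, adjusted p = 1.2e-07), Gnb3 (1.81, adjusted p = 5.9e-07), Nr2e3 (1.42, adjusted p = 2.4e-05), Nxnl2 (1.20, adjusted p = 2.1e-06), Fscn2 (1.22, adjusted p = 2.1e-06) and Samd11 (1.36, adjusted p = 4.4e-06). Pde6c, the cone phosphodiesterase, went the other way (-1.62, adjusted p = 2.7e-06). Transcription factor genes were Prdm1 (0.98, adjusted p = 0.00428) and Mef2c (1.11, adjusted p = 0.00025). Receptor genes were Htr3a (3.30, adjusted p = 0.00115), Cckbr (2.55, adjusted p = 3.2e-06) and Chrnb4 (1.33, adjusted p = 0.0414). Gulo, the last enzyme of vitamin C synthesis, was at 2.04 (adjusted p = 5.6e-06). In wildtype alone, none of these 14 was called, and their log2-fold changes ran from -0.34 for Prdm1 to 0.34 for Chrnb4.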

How the results depend on the processing

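The count of 1 gene higher with dox was 22 with DESeq2, 6 with library size scaling, 153 with no count filter and 7 with robust fitting. It was 0 with all 12 retinas in 1 fit, with the crystallin covariate over 6 or 12 retinas, with an Xist covariate, without dox retinas 1 and 2, and at a log2 cutoff of 2. The count of 0 lower was 4, 1, 33 and 2 under the first 4 settings. With no filter, 28401 genes were tested and the median degrees of freedom were 113604, compared with 11.2, so that fit was close to a test with no spread to estimate per gene. Leaving out 1 library gave 0 to 122 genes higher (122 without dox retina 3, 9 without untreated retina 1, 0 without dox retina 1 or untreated retina 3) and 0 to 4 lower (4 without dox retina 3). The interaction count ran from 90 to 190 higher (190 without wildtype dox retina 3) and 48 to 90 lower (48 without PRDM13-OE dox retina 2). The causes were not tested. Slc6a13 was not called without dox retina 1 (adjusted p = 0.0723), untreated retina 2 (0.0965) or untreated retina 3 (0.0787), nor with 12 retinas (0.402; 0.770 with the covariate) or the Xist covariate (0.0695).

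With the mouse number as a replicate block, 19 genes were higher and 2 lower, and the interaction counts were 107 and 73. The numbers do not pair the mice, so the block is given only here. No gene called in any of these settings changed direction against the main comparison. Settings in which 0 genes were called cannot show such a change. The crystallins, not called in the main comparison, went from a median of 3.33 to -1.78 without dox retinas 1 and 2. The interaction of Slc6a13 ran from 1.47 to 3.03 with 1 library left out and passed an adjusted p of 0.05 only without PRDM13-OE untreated retina 2. It did not pass with DESeq2 (2.55, adjusted p = 0.0755), the crystallin covariate (2.32, 0.145) or the replicate block (2.38, 0.0538). For most genes under 1 CPM the interval reached past a 2-fold change.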
